A study of Mus musculus with 2 samples.

Results

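Lipid droplet proteins and lipases were followed as 10 genes chosen by name, which were Plin2, Plin4, Plin5, Cidea, Cidec, Cideb, Hsd17b13, Pnpla2, Pnpla3 and G0s2, and all 10 were among the 19059 genes of both matrices. Single-cell gene expression was measured with a fixed RNA probe assay in 1 library per label, both from livers of mice given a high-fat and high-sugar diet (HF/HSD) from 7 weeks of age for 20 weeks and taken at 27 weeks. AEG-1fl/fl mice carry floxed alleles of Mtdh, the gene of AEG-1, and are the control littermates. AEG-1DMAC mice carry the same floxed alleles with Cre driven from LysM (Lyz2), a promoter active in macrophages, monocytes and neutrophils, so hepatocytes keep the gene in both. Both livers therefore share the floxed alleles and the steatotic diet, and no liver on a control diet is compared here.

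A lipid droplet is a core of triglyceride and cholesteryl ester under a single layer of phospholipid, and the proteins on that layer set how the store grows and how it is opened. Perilipins (Plin2, Plin4, Plin5) coat the droplet and limit the access of lipases, and CIDE proteins (Cidea, Cidec, Cideb) sit where droplets touch or, for Cideb, where lipoproteins are lipidated. Pnpla2 encodes ATGL, the lipase that takes the first fatty acid from triglyceride, G0s2 encodes an inhibitor of ATGL, Pnpla3 encodes a related droplet protein whose human variant is linked to fatty liver, and Hsd17b13 encodes a hepatocyte droplet protein whose loss-of-function variants are linked to protection from liver disease. Hepatocytes differ along the lobule from the portal vein to the central vein, and this order is called zonation.

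After cells with under 100 genes or over 10% mitochondrial counts were left out, 2571 cells of 2581 remained in the library labelled AEG-1DMAC and 3508 of 3535 in the library labelled AEG-1fl/fl, with medians of 12746 and 7682 counts per cell, and 10 cell barcodes occurred in both libraries. Cells were gated by marker counts, which gave 1157 and 1076 hepatocytes with medians of 30555 and 32586 counts per cell. All 12 hepatocyte markers measured were detected in them, but these markers set the gate and were all detected in macrophages too. Adipoq, the defining adipocyte gene, had 0 counts in all deposited cells of both libraries. The other adipocyte markers listed were not all absent. In the libraries labelled AEG-1DMAC and AEG-1fl/fl, Trarg1 had 128 and 121 counts, Retn 9 and 10, Ucp1 4 and 8 and Lep 0 and 1. Mtdh went against the labels. In macrophages of the library labelled AEG-1DMAC it had 422 counts (120.7 CPM, counts per 1000000 counts of those cells). In macrophages of the library labelled AEG-1fl/fl it had 194 counts (28.4 CPM). In the same order of libraries, Mtdh stood at 61.6 and 57.8 CPM in hepatocytes. It stood at 97.8 and 116.9 CPM in endothelial cells and at 111.7 and 96.4 CPM in stellate cells. Each library is therefore named by its label throughout, and every direction below rests on the labels as deposited. With 1 library per label no difference between labels could be tested. Intervals are 95% Poisson intervals for levels and Clopper-Pearson intervals for ratios. They cover counting error only and not the spread between cells or between mice. The probe sets differ between genes, so levels are compared for 1 gene at a time and never between genes.

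Upstream sequence is shown for 4 members, because 3 of them, Plin4, Cidec and G0s2, were higher in pericentral hepatocytes and Hsd17b13 was higher in periportal hepatocytes of both libraries. The sequences are RefSeq promoter windows of build GRCm38.p6, 5′ to 3′, from 250 to 31 bases before the annotated start, and capitals mark matches on either strand to CTTTGA, the core that TCF/LEF factors bind, or AGGTCA, the hexamer that nuclear receptors such as the PPARs bind.
Plin4, chr17:56109813-56110032, minus strand: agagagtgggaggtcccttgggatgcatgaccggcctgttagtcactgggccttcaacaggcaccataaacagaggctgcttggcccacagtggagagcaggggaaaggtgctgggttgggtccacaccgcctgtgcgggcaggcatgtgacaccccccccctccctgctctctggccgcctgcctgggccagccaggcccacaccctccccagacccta
Cidec, chr6:113435791-113436010, minus strand: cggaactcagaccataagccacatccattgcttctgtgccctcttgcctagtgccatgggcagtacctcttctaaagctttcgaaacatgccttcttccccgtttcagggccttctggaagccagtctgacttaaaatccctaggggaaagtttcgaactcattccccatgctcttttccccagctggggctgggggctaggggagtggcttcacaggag
G0s2, chr1:193273219-193273438, minus strand: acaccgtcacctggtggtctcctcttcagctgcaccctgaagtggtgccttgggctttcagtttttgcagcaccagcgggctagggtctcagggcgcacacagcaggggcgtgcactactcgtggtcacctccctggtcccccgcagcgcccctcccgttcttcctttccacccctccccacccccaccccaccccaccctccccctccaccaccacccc
Hsd17b13, chr5:103977419-103977638, minus strand: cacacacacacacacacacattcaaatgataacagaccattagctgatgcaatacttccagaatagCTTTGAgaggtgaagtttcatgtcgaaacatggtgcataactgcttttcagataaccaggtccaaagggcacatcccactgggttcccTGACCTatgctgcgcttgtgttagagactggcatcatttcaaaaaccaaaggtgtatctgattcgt

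RefSeq gave 11 such windows for 9 of the members, and no window was used for Cidea. CTTTGA was found in the windows of Hsd17b13 and Pnpla3 and in 12.6% of all 32851 windows. AGGTCA was found in windows of Hsd17b13, Plin2 and Plin5 and in 12.5% of all windows. CACGTG, the E-box letters, matched none of the 11 member windows and 5.01% of all windows. The windows of the 3 pericentral members printed above held none of these 3 motifs, which says only that these letters are not in these 220 bases. The GC content was 65.5% for Plin4, 53.6% for Cidec, 66.8% for G0s2 and 43.6% for Hsd17b13, against a median of 51.8% over all windows.

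Along the lobule the droplet genes did not share 1 pattern. Hepatocytes were ordered in each library by the log2 ratio of raw Cyp2e1 to Cyp2f2 counts, a pericentral and a periportal enzyme gene. They were cut into 3 equal groups, called pericentral, midlobular and periportal, and into 10 bins for the shape. In this order the groups had medians of 33118.5, 24828 and 33679 counts per cell in the library labelled AEG-1DMAC. In the library labelled AEG-1fl/fl they had 49336, 20416 and 38259.5. The midlobular group was thus the lowest in counts, and the part of this in its levels was not tested. Plin4, Cidea, Cidec and G0s2 were over 1.5-fold higher in the pericentral than in the periportal group of both libraries, as were 5.77% of the 10814 genes with at least 200 summed hepatocyte counts. Hsd17b13 was over 1.5-fold higher in the periportal group of both, as were 2.39% of these genes. Plin2, Plin5, Cideb, Pnpla2 and Pnpla3 stayed within 1.5-fold in at least 1 library. The order itself was followed by all 10 pericentral and all 12 periportal landmark genes tested, none of which set it. The median log2 ratio, pericentral over periportal, was 0.45 over the members and 0.27 over all genes tested in the library labelled AEG-1DMAC. In the library labelled AEG-1fl/fl these medians were 0.53 and 0.17. The typical gene was thus itself slightly higher pericentrally. Gradients called flat, nearly level or shallow below are set against a ratio of 0 and not against these medians.

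**Figure D1:**
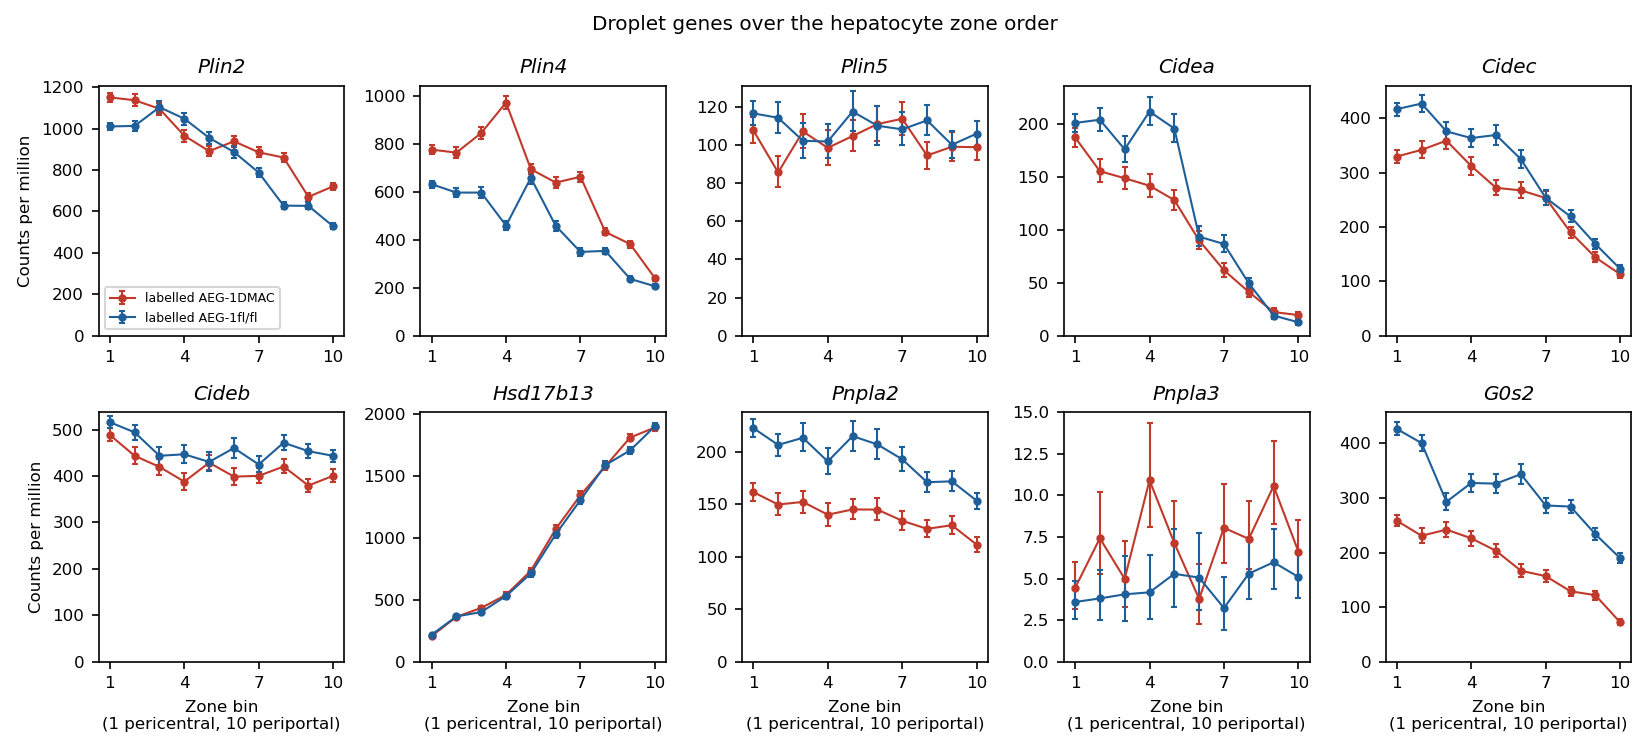
Level of each droplet gene in CPM (vertical axis, linear from 0) over 10 bins of hepatocytes ordered from pericentral (1) to periportal (10), red for the library labelled AEG-1DMAC and blue for the library labelled AEG-1fl/fl, with 95% Poisson intervals for counting error. Cidea and Hsd17b13 run in opposite directions along the order, Plin5 and Cideb are nearly level, and the blue points of G0s2 and Pnpla2 lie above the red points in all 10 bins.

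Among the CIDE genes the zonation was graded. Cidea (chromosome 18, 67343604 to 67367785, plus strand), which is best known from brown fat and appears in hepatocytes of fatty liver, had the steepest pericentral gradient of the members. In the library labelled AEG-1DMAC it stood at 165.8 CPM in the pericentral, 109.2 in the midlobular and 27.6 in the periportal group, and in the library labelled AEG-1fl/fl at 199.2, 143.9 and 27.9 CPM. The pericentral level was 6.01-fold and 7.13-fold the periportal level, and from the first to the last bin it went from 187.8 to 19.4 CPM and from 201.4 to 12.5 CPM. Between the libraries the periportal groups differed by a log2 ratio of -0.02 (-0.17 to 0.13), and in the last bin the library labelled AEG-1DMAC was the higher one (16.6 to 22.5 against 10.5 to 14.9 CPM, 0.63), opposite to all hepatocytes. The level in the library labelled AEG-1fl/fl stayed between 176.4 and 212.2 CPM through the first 5 bins and was at 93.7 CPM in the next, as the plot over the bins shows.

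Cidec, which encodes the protein (FSP27) that moves lipid from small to large droplets, had 343.9, 267.1 and 154.9 CPM in the pericentral, midlobular and periportal groups of the library labelled AEG-1DMAC. In the library labelled AEG-1fl/fl it had 404.5, 337.6 and 168.1 CPM. The pericentral level was 2.22-fold and 2.41-fold the periportal level. Cideb (chromosome 14, 55754050 to 55758458, minus strand), the member of the family that healthy hepatocytes express and that acts in lipidation of very-low-density lipoprotein, was nearly level, at 453.3, 404.4 and 402.4 CPM and at 492.2, 433.0 and 455.5 CPM. The 3 genes of 1 family thus ranged from a 7.13-fold to a 1.08-fold gradient in the library labelled AEG-1fl/fl.

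The perilipins were graded too. Plin4 had 819.2, 721.2 and 355.2 CPM from the pericentral to the periportal group of the library labelled AEG-1DMAC and 596.2, 500.3 and 263.5 CPM in the library labelled AEG-1fl/fl, a 2.31-fold and a 2.26-fold gradient. This gradient depended on how cells were ordered: with the landmark lists in place of Cyp2e1 and Cyp2f2, the log2 ratio of Plin4 fell from 1.21 to 0.13 in the library labelled AEG-1DMAC and from 1.18 to 0.84 in the other. Plin2 (chromosome 4, 86648386 to 86670060, minus strand), the perilipin that is found on most hepatocyte droplets and is stained as a measure of steatosis, had 1124, 906.4 and 763.8 CPM and 1011, 958.5 and 593.6 CPM. Its gradient was 1.47-fold in the library labelled AEG-1DMAC and 1.70-fold in the other, so only the second passed 1.5-fold. Plin5 (chromosome 17, 56111601 to 56117596, minus strand), the perilipin of tissues that burn fatty acids, lies beside Plin4 on the same strand and was flat, at 102.7, 106.3 and 99.01 CPM and at 113.1, 107.3 and 107.4 CPM. Its intervals for the pericentral to periportal ratio included 0 on the log2 scale in both libraries (-0.03 to 0.14, and -0.001 to 0.15).

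Hsd17b13 was the periportal gene of the set and the one whose curve was closest between libraries. It stood at 319.9, 933.2 and 1738 CPM in the pericentral, midlobular and periportal groups of the library labelled AEG-1DMAC and at 317.4, 911.1 and 1722 CPM in the library labelled AEG-1fl/fl. The periportal level was 5.43-fold the pericentral level in both (5.433 and 5.425). From the first to the last bin it went from 206.1 to 1889 CPM and from 217.0 to 1899 CPM.

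The lipase gene Pnpla2 had a shallow pericentral gradient of 1.28-fold in both libraries (1.276 and 1.277). It had 156.6 and 122.7 CPM at the ends in the library labelled AEG-1DMAC and 212.3 and 166.3 CPM in the other. Its log2 ratio was 0.35 in both, against medians over all genes tested of 0.27 and 0.17. The inhibitor gene G0s2 was steeper, at 246.6, 183.2 and 110.1 CPM and at 385.0, 322.5 and 234.8 CPM, a 2.24-fold and a 1.64-fold gradient. With the landmark lists setting the order, the log2 ratio of G0s2 was 0.69 and 0.40 in place of 1.16 and 0.71, and the second no longer passed 1.5-fold. Pnpla3 (chromosome 15, 84167837 to 84187236, plus strand) was measured by only 450 and 305 hepatocyte counts and was higher periportally, at 5.51 against 7.95 CPM and at 3.64 against 5.14 CPM.

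The genes whose zone pattern was most like that of each member were found by Pearson's r of log2(CPM + 5) over the 20 bins, each library centred, among 5830 genes with a mean of at least 20 CPM, a description over bins that share their cells' library and depth. For Cidea they were Fitm1 (r = 0.984), which encodes a protein of droplet formation, Cidec (0.973) and Mfn2 (0.970). For Cidec they included Plbd1 (0.981) and Cldn2 (0.980). For Plin2 they were Tubb2a (0.972), Map1lc3a (0.962), which encodes an autophagosome protein, and Nucb1 (0.947). Plin4 was most like Eif4g3 (0.978), Nr1i3 (0.976), which encodes the nuclear receptor CAR, and Mapk1ip1 (0.976). Hsd17b13 was most like Sfxn1 (0.993), Hal (0.990) and Amdhd1 (0.990), and the last 2 encode enzymes of histidine breakdown. Pnpla2 was most like Dusp6 (0.953), Ick (0.951) and Cebpb (0.951), and G0s2 like Tnfaip8l1 (0.973), Lect2 (0.970) and Cyp27a1 (0.970). For the flat genes the best r was lower, at 0.749 for Plin5 with Dda1 and 0.834 for Cideb with Erg28. Pnpla3 was below the limit of 20 CPM.

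Between the libraries, the lipase gene and its inhibitor gene were both lower in hepatocytes of the library labelled AEG-1DMAC, Plin4 and the sparsely counted Pnpla3 were higher, and the other 6 members differed by at most 0.29 on the log2 scale. G0s2 had 176.0 CPM (11296 counts) in the library labelled AEG-1DMAC and 310.7 CPM (20851 counts) in the library labelled AEG-1fl/fl, a log2 ratio of -0.82 (-0.85 to -0.79) and 1.77-fold lower under the first label. Pnpla3 had 7.01 and 4.54 CPM, a log2 ratio of 0.63 (0.41 to 0.84). These were the only members past 1.5-fold, 1 in each direction, and of the 10814 genes 3.57% were higher and 3.9% lower in the library labelled AEG-1DMAC by that measure. At a lower limit, a log2 ratio of 0.32 in size, the count was 2 members higher (Plin4 and Pnpla3; 10.8% of all genes) and 2 lower (Pnpla2 and G0s2; 11.3% of all genes). At 2-fold it was 0 members in either direction (0.915% and 1.35% of all genes). The median log2 ratio of the members was -0.12 and that of all genes tested 0.02.

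**Figure D2:**
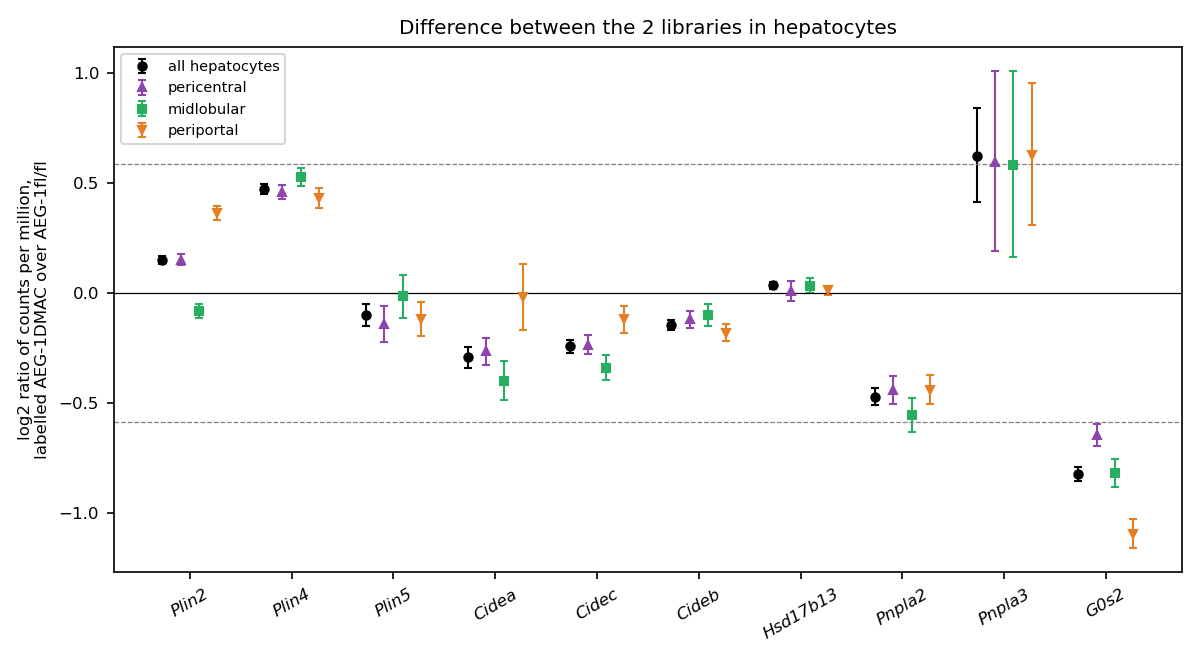
Log2 ratio of CPM between the libraries (vertical axis, positive where the library labelled AEG-1DMAC is higher) for each gene in all hepatocytes (black) and in the pericentral, midlobular and periportal groups, with 95% Clopper-Pearson intervals for counting error and dashed lines at 1.5-fold. G0s2 goes from -0.64 in the pericentral to -1.09 in the periportal group, and Hsd17b13 stays near 0 in all 3 groups.

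The difference in G0s2 was present along the whole lobule. It was lower in 10 of 10 bins of the library labelled AEG-1DMAC, with a log2 ratio of -0.64 in the pericentral, -0.82 in the midlobular and -1.09 in the periportal group, or 1.56, 1.76 and 2.13-fold. Pnpla2 (chromosome 7, 141455198 to 141460743, plus strand) had 138.8 and 192.2 CPM, a log2 ratio of -0.47 (-0.51 to -0.43), and was likewise lower in 10 of 10 bins, by 1.36, 1.47 and 1.35-fold in the 3 groups. Among their partners, Abhd5, which encodes the activator of ATGL, had 25.5 and 27.3 CPM (-0.10), Lipe, which encodes hormone-sensitive lipase, 28.6 and 26.4 CPM (0.12), and Mgll, which encodes monoglyceride lipase, 205.7 and 246.3 CPM (-0.26). These 3 genes were picked after their values were seen, and of the same list Abhd6 was at -0.47, Ddhd2 at -0.66 and Ces1d at -0.81.

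Plin4 had 612.3 CPM in the library labelled AEG-1DMAC and 440.9 CPM in the library labelled AEG-1fl/fl, a log2 ratio of 0.47 (0.45 to 0.50), and was higher in 10 of 10 bins by 0.08 to 1.08. When each hepatocyte was given equal weight the log2 ratio of Plin4 was 0.70, past 1.5-fold. Plin2 had 923.3 and 831.2 CPM, a log2 ratio of 0.15 (0.13 to 0.17). Its direction changed along the lobule, from 0.15 in the pericentral to -0.08 in the midlobular and 0.36 in the periportal group. These groups were cut in each library by itself, and the part of that in the change was not tested. Plin5 had 102.3 and 109.5 CPM (-0.10, -0.15 to -0.05). Hsd17b13 had 1041 and 1015 CPM (0.04, 0.02 to 0.05). The CIDE genes were all slightly lower in the library labelled AEG-1DMAC, Cidea at 96.4 against 117.9 CPM (-0.29), Cidec at 249.2 against 294.4 CPM (-0.24) and Cideb at 419.8 against 464.3 CPM (-0.15), and Cidec and Cideb were lower in 10 of 10 bins. For Cidea the periportal ratio was -0.02 (-0.17 to 0.13).

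Genes that moved with the library label in the same hepatocytes included the zone landmarks, of which 7 of 10 pericentral and 4 of 12 periportal genes were over 1.5-fold higher in the library labelled AEG-1DMAC and 0 and 1 lower. Marker lists of other cell types in the hepatocyte gate differed too, and all of their markers were detected. In the libraries labelled AEG-1DMAC and AEG-1fl/fl, the 7 lipid-associated macrophage markers summed to 156.0 and 467.8 CPM. The 7 Kupffer cell markers summed to 447.4 and 252.9 CPM and the 11 endothelial markers to 210.1 and 118.9 CPM. The 3 erythroid markers summed to 127.9 and 48.8 CPM. The lipid-associated list is not particular to macrophages: it summed to 13227 and 10989 CPM in cholangiocytes and to 1209 and 4589 CPM in macrophages. Both libraries held counts of Y-linked genes. Of genes that differ between male and female livers, Sult1e1 (19.1 and 0.61 CPM) and Cyp2b9 (15.3 and 1.01 CPM), both higher in females, were higher in the library labelled AEG-1DMAC. Of those higher in males, Elovl3 (89.65 and 30.9 CPM) was higher there too, and Mup20 (3110 and 5946 CPM) and Cyp4a12a (93.7 and 166.6 CPM) were lower. The part of these in the differences above, and in that of Fabp4 below, was not tested. The genotype, the mouse and the library cannot be told apart.

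Other genes of droplet metabolism were read from lists. Beside them stand the shares of all genes tested, 3.57% higher and 3.9% lower past 1.5-fold. Of 17 triglyceride synthesis genes 0 were higher and 2 lower past 1.5-fold in the library labelled AEG-1DMAC. The lower ones were Dgat2, which encodes the enzyme of the last step and had 386.4 and 608.9 CPM (-0.66), and Gpat3 (-0.63), while Gpam (0.27) and Mogat1 (0.24) had the highest ratios. Of 13 genes of droplet formation and other droplet surface proteins 0 were higher and 1, Fitm2, was lower (78.4 and 117.7 CPM, -0.59). It lay at the limit, with an interval of -0.64 to -0.53 that included 1.5-fold. Next lowest was Tmem159 (-0.49), and Ubxn8 (0.15) and Aup1 (0.13) were highest. Of 17 other lipases and cofactors 0 were higher and 2 lower, Ces1d (439.8 and 769.3 CPM, -0.81) and Ddhd2 (28.1 and 44.3 CPM, -0.66), and Ces1g (0.42) and Pnpla6 (0.36) were highest. Ces1d and Ces1g belong to 1 family of related genes, and whether their probes tell them apart was not tested. Plin3 (113.2 and 105.9 CPM) differed by 0.10, and Plin1, the adipocyte perilipin, had 8 hepatocyte counts in each library.

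A last list held the 3 PPAR nuclear receptor genes and 11 known targets outside the members. Of these 14 genes 0 were higher and 5 lower past 1.5-fold in the library labelled AEG-1DMAC (3.57% and 3.9% of all genes tested), with a median log2 ratio of -0.47 against 0.02 over all genes tested. The 5 were Fgf21, which encodes a fasting hormone of the liver (26.2 and 52.8 CPM, -1.01), Fabp4, a fatty acid carrier gene (56.0 and 105.9 CPM, -0.92), Pdk4 (-0.85), Cyp4a10 (-0.84) and Angptl4 (-0.67). The receptor genes stood at 290.0 and 288.2 CPM for Ppara (0.01), 23.9 and 20.7 CPM for Pparg (0.21) and 11.7 and 10.2 CPM for Ppard (0.20). Of the same 14 genes 8 were over 1.5-fold higher pericentrally in both libraries and 0 periportally, against 5.77% and 2.39% of all genes tested.

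Of the members, Plin4 had the highest ratio of variance to mean over single hepatocytes. Each cell was thinned to 20000 counts, which 775 and 701 hepatocytes reached and 382 and 375 did not. Plin4 then had a median of 6 counts per cell with a 90th percentile of 41 and a maximum of 99 in the library labelled AEG-1DMAC, and a median of 4, a 90th percentile of 26 and a maximum of 107 in the other. Its variance was 24.4 and 17.2 times its mean, and 19.4 and 15.9 times within zone bins, so most of the spread lay among cells of like zone. The 78 and 70 hepatocytes highest in Plin4, which are 1 cell in 10, held 42.1% and 42.7% of its counts. For Plin2 the same number of cells held 21.8% and 23.7%, for Cideb 18.2% and 17.9%, and for Cidea, with a mean of under 3 counts per cell, 40.2% and 43.1%.

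Plin2 was found in 100% of these thinned cells of both libraries, with medians of 17 and 15 counts. G0s2 had a variance of 5.1 and 7.3 times its mean and a median of 2 and 4 counts against maxima of 31 and 60. Cidea had a count in 64.3% and 60.6% of thinned cells (80.4% and 79.9% of the same cells before thinning), and Cideb in 99.9% of both (99.87 and 99.86). Pnpla2 had a variance of 1.34 and 1.5 times its mean and Cideb, with more counts per cell, of 1.47 and 1.56 times. For Hsd17b13 the variance fell from 11.4 to 3.99 and from 13.4 to 6.10 times the mean when cells were compared within zone bins.

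Within zone bins, pairs of members were related over cells only weakly to moderately. Among the highest Spearman correlations were those between Plin4 and G0s2 (0.31 over 775 cells and 0.45 over 701 cells), Plin2 and Cidec (0.26 and 0.43), Plin4 and Plin5 (0.25 and 0.33) and Plin4 and Cidec (0.25 and 0.25). Plin2 and Plin4, both coat proteins, stood at 0.04 in the library labelled AEG-1DMAC and 0.26 in the other. Cidea, close to Cidec in its zone pattern, stood at 0.08 and 0.05 with Cidec over cells. Pnpla2 and G0s2, the lipase and its inhibitor, stood at 0.07 and 0.06. These cells share a library, and the correlation of a member with a cell's total count was at most 0.16 (0.163, Hsd17b13) after thinning.

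**Figure D3:**
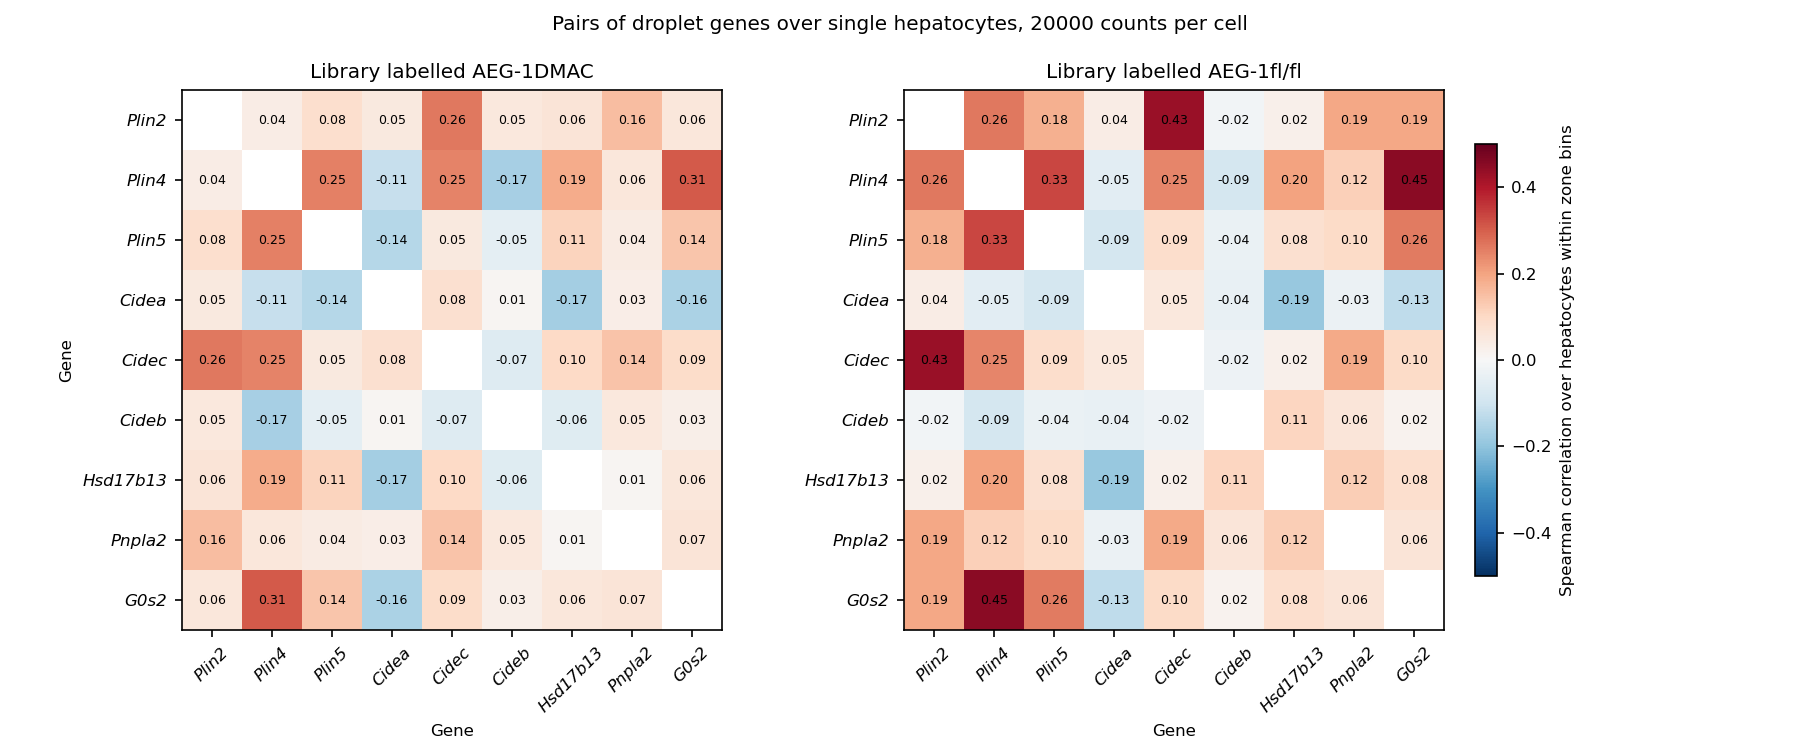
Spearman correlation (colour and number) between pairs of droplet genes over single hepatocytes of each library, computed within the 10 zone bins after thinning each cell to 20000 counts; rows and columns are genes and Pnpla3 is left out for its few counts. The darkest squares in both panels are Plin4 with G0s2 (0.31 and 0.45) and Plin2 with Cidec (0.26 and 0.43).

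In other cell types most members did not rise above a background of hepatocyte RNA in both libraries. It is called free hepatocyte RNA here, and its source was not measured. For this background, 29 genes made by hepatocytes were read in each gated cell type as a percent of their hepatocyte CPM. Their median was 49.1% and 33.5% in macrophages (331 and 796 cells in the libraries labelled AEG-1DMAC and AEG-1fl/fl), 48.6% and 30.2% in endothelial cells (236 and 335), 56.5% and 46.8% in stellate cells (181 and 305) and 21.1% and 27.1% in cholangiocytes (22 and 71). All 14 macrophage, 11 endothelial and 12 stellate markers measured were detected in their types, and 6 and 7 of 7 cholangiocyte markers in cholangiocytes. These lists set the gates and were detected to the same number in hepatocytes, so detection does not tell the types apart. A member was counted as above this background where the lower bound of its level exceeded the highest of the 29 genes in both libraries. This limit is strict, so a member that did not pass it may still have RNA of its own in that type. Of 40 pairs of member and cell type 4 did so: Pnpla2 in macrophages (69.9% of all genes tested were above there), Pnpla2 in endothelial cells (69.6%), and Pnpla2 and G0s2 in stellate cells (60.8%). In cholangiocytes 0 members did (41.1%), where the highest of the 29 genes stood at 107% and 111%. Pnpla2 there was at 121% and 115% of hepatocytes (167.8 and 221.4 CPM, 51 and 198 counts), with lower bounds of 89.97% and 99.7%. Read the same way, Mtdh in macrophages was at 196% and 49.1% of hepatocytes, with lower bounds of 178% and 42.5%. The highest of the 29 genes was at 74.3% and 46.1%, so Mtdh was above the background in macrophages labelled AEG-1DMAC only.

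**Figure D4:**
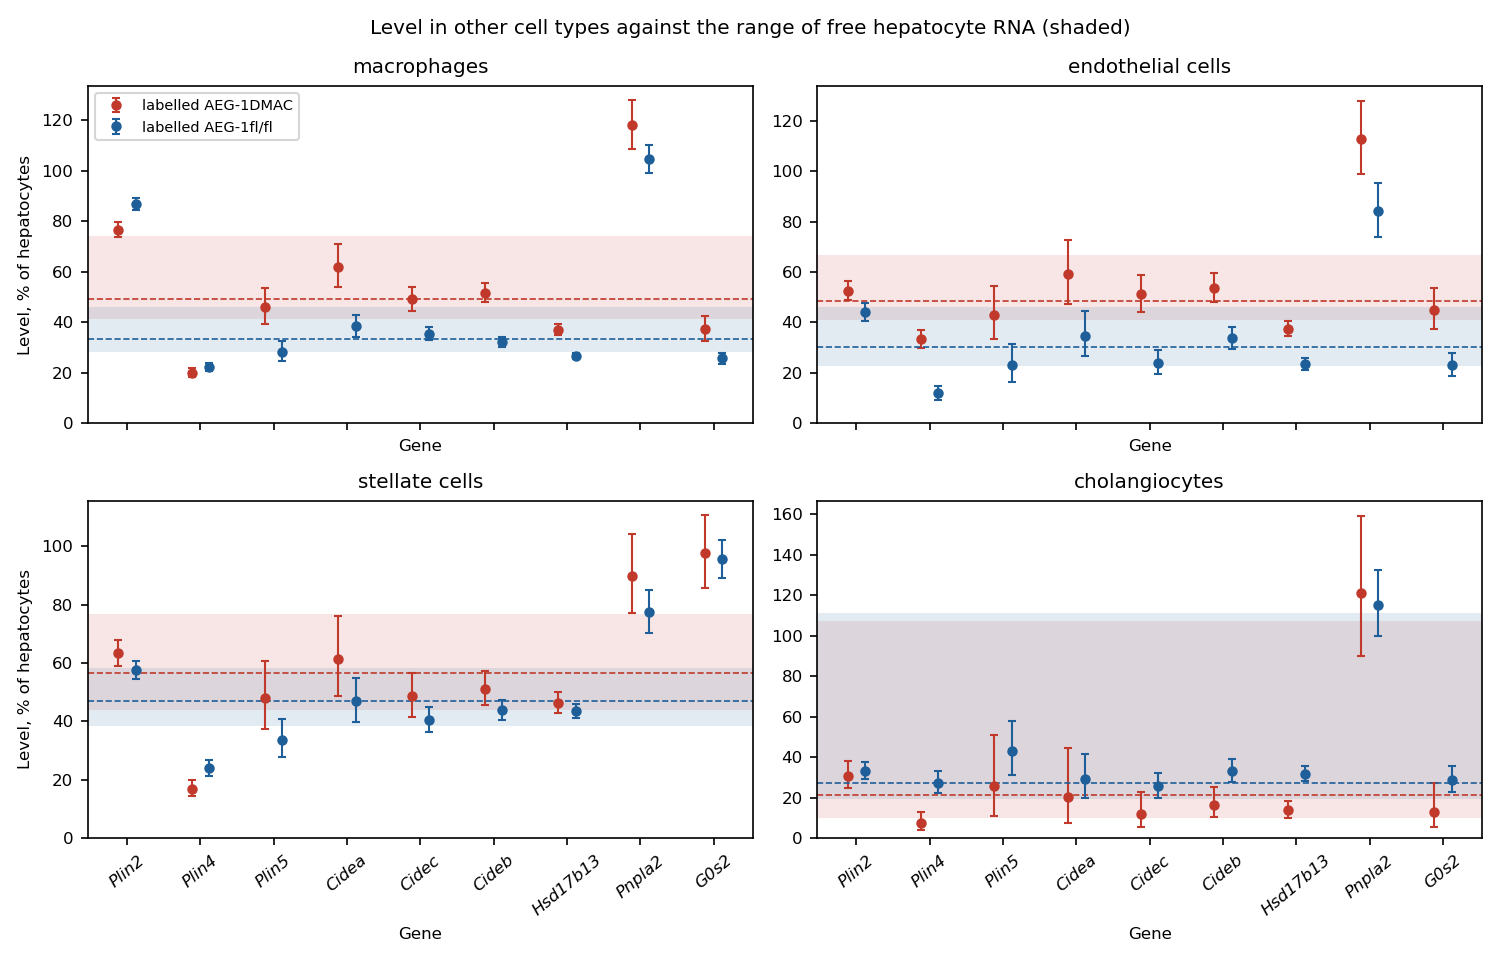
Level of 9 droplet genes in 4 cell types as a percent of their level in hepatocytes of the same library (vertical axis), red for the library labelled AEG-1DMAC and blue for the library labelled AEG-1fl/fl, with 95% Poisson intervals. Shaded bands span the lowest to highest of the 29 genes of free hepatocyte RNA and dashed lines are their medians. Pnpla2 lies above the bands in macrophages, endothelial cells and stellate cells, and G0s2 in stellate cells. Plin4 lies below the bands in macrophages, endothelial cells and stellate cells.

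Pnpla2, whose lipase acts in most tissues, stood in macrophages at 163.8 CPM (118% of hepatocytes) and 201.3 CPM (105%), in endothelial cells at 156.7 CPM (113%) and 161.8 CPM (84.2%), and in stellate cells at 124.7 CPM (89.8%) and 148.9 CPM (77.4%), the first value in each pair being that of the library labelled AEG-1DMAC. G0s2 in stellate cells, which store retinyl ester in droplets of their own, stood at 171.6 CPM (238 counts, 97.5%) and 296.7 CPM (859 counts, 95.5%). It was 1.73-fold lower in stellate cells of the library labelled AEG-1DMAC. Free hepatocyte RNA at its median would give 99.4 and 145.4 CPM of these levels, and its part in the difference was not tested. In macrophages G0s2 was at 37.4% and 25.7% of hepatocytes, under the medians of the free RNA genes.

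Plin2 in macrophages, where it coats the droplets of foam cells, had 707.6 CPM (76.6% of hepatocytes) and 720.8 CPM (86.7%). The lower bounds were 73.7% and 84.3%, and the highest free RNA gene was at 74.3% and 46.1%, so Plin2 was above the background in the library labelled AEG-1fl/fl only. Macrophages of that library with more counts of lipid-associated macrophage markers than of Kupffer cell markers (246 cells) had 875.1 CPM of Plin2 (833.6 to 918.0), and the other 550 had 661.0 CPM (638.5 to 684.1). Free hepatocyte RNA at its median would give 162.6 and 322.2 CPM of these. In the library labelled AEG-1DMAC the 47 and 284 cells of these classes had 700.7 CPM (613.8 to 796.5) and 708.4 CPM (679.3 to 738.3). The classes are ranges of a count ratio, with 129 and 30 cells within 2-fold of the limit. The lipid-associated marker list is not particular to macrophages, as it summed higher in cholangiocytes of both libraries.

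Apart from the sparse Pnpla3, Plin4 had the lowest level relative to hepatocytes of the members in macrophages and stellate cells, at 20.0% and 22.1% and at 17.0% and 23.8% of the hepatocyte level, under the lowest of the 29 genes there. In endothelial cells it had 203.9 CPM (33.3%) in the library labelled AEG-1DMAC and 52.2 CPM (11.8%) in the other, again under the lowest free RNA gene. Hsd17b13 too lay at or under the background in these types, at 37.1% and 26.5% in macrophages and 46.3% and 43.6% in stellate cells. Cidea, Cidec, Cideb and Plin5 stayed inside the range of free hepatocyte RNA or under it in macrophages, endothelial cells and stellate cells, between 22.9% and 62.0% of hepatocytes. Pnpla3 had 4 to 29 counts in each of these types, and in stellate cells its 9 and 29 counts gave 92.6% and 220% of the hepatocyte level, the second with a lower bound of 148%. In T or NK cells, B cells, neutrophils and dendritic cells each member had 0 to 35 counts in the library labelled AEG-1DMAC and 0 to 65 in the other, and no level is compared there.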

How the data were processed

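Single-cell suspensions of fixed liver were profiled with the 10x Genomics Fixed RNA probe assay, and the deposited values are whole-number UMI counts per gene and cell that the authors made with Cell Ranger (7.1.0 in the submitters' processing notes, which also name Seurat) on mm10. The cells deposited are called barcodes only, and how many livers each library holds is not given in the sources used here. Here, counts were summed per library and gated cell type or zone group and divided by their total (CPM). Gates rest on marker counts per 1000000 counts of a cell, with limits of 8000 for macrophages, 4000 for endothelial cells, 6000 for stellate cells and 1500 for cholangiocytes, set after the marker distributions were seen. Hepatocytes had at least 5000 counts, 5% hepatocyte markers and at most 50% of any other limit. A cell with markers of several types was left out (57 and 116 cells), 504 and 612 cells were ungated, and no doublet caller was run. Library totals were 79589511 and 90440089 counts. The members, lists and limits were chosen with earlier results of these data known. Named genes are the members, per list the 2 highest and 2 lowest ratios, and per member the 3 most similar zone patterns, of which 1 is not reported here. Pdk4, Cyp4a10, Angptl4, Ppara, Plin1, Abhd6 and the genes that differ by sex were named after their values were seen. The ratio and its interval were tested on simulated summed counts drawn as Poisson, so that test could not show the effect of spread between cells. Zone scores add 1 to raw counts. Python 3.11.15, scipy 1.17.1 and, for TMM factors, edgeR 4.0.16 were used. Both libraries share 1 diet, and each label has 1 library, so no p-value is given.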

Additional observations from a re-analysis of the deposited data

Results flagged for a closer look

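Plin4 went opposite ways in 2 cell types. Its log2 ratio, library labelled AEG-1DMAC over library labelled AEG-1fl/fl, was 0.47 in hepatocytes and -1.39 (-2.31 to -0.58) in cholangiocytes, where it rested on 14 and 108 counts from 22 and 71 cells. Hsd17b13 (-1.19) and Cideb (-1.15) were likewise lower in cholangiocytes of the library labelled AEG-1DMAC, with ratios of 0.04 and -0.15 in hepatocytes. The difference between the ratios of Plin4 was not tested. Free hepatocyte RNA in cholangiocytes had medians of 21.1% and 27.1% of the hepatocyte level, and Plin4 stood at 7.5% and 27.4% (46.1 and 120.8 CPM). The part of free RNA in the difference was not tested.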

How the results depend on the processing

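No paired analysis was possible because each label has a single library, and none could be left out. The number of members past 1.5-fold between libraries in hepatocytes was 2 as reported, 4 at a limit of 0.32 on the log2 scale and 0 at 2-fold, and 1 over all cells of the library without gates or at zone limits common to both libraries, alternatives chosen after seeing the data. G0s2 stayed past 1.5-fold in each of the 10 alternatives with a value per member (-0.86 to -0.67). Pnpla3 went from 0.56 to 0.73, with its low end under 1.5-fold, and Plin4 was past 1.5-fold at its high end. Which members passed thus depended on the processing, also where their number did not change. Each member kept its direction between libraries in all 10, from -0.51 to -0.42 for Pnpla2 and from 0.45 to 0.70 for Plin4. Sizes were less stable: 37 of 100 such values lay outside the counting interval of the value reported. The same held for 76 of 140 zone values, and for 24 of 32 cell type values under a stricter gate or after subtracting the hepatocyte profile. The number past 1.5-fold between zones was 5 as reported and 3 with the order set by the landmark lists, which left Cidea, Cidec and Hsd17b13, and comparing the outermost 20% of cells at each end added Plin2. Cidea ranged from 2.03 to 3.72 and Hsd17b13 from -2.91 to -2.29 over both libraries and 7 alternatives, and the sign of Plin5 changed in 2 and 1 of 7. The number of member and cell type pairs above free hepatocyte RNA was 4 as reported. It was 10 after subtracting the median hepatocyte profile, a laxer limit than the highest free RNA gene by construction. Apart from the other fold limits, the share of all genes was not computed under the alternatives. Their counts therefore say nothing about the members beside other genes. Pnpla3, with 450 and 305 counts, was limited by depth in every zone and cell type.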
